A study of Homo sapiens with 12 samples.

Results

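Exosomes of AC16 cells, compared between AngII and Con, were 6 of the 12 small-RNA libraries of the series, and the other 6 were of whole AC16 cells. AC16 is an established human line with cardiomyocyte features, made by fusing ventricular heart cells with fibroblasts. The exosome libraries were 3 labelled exo-S-Con and 3 labelled exo-S-Ang, and were chosen by those labels. The value columns of the Ang files read AngII, the usual short name of angiotensin II, which the labels do not spell out. The sources used here give neither dose nor time, nor what Con received. Nothing says that the numbered libraries came from separate cultures, and p-values below therefore reflect only how much these libraries varied, which may be technical. All miRNA names in the exosome files were described, 2580 in all.

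A miRNA is cut from a hairpin as a duplex of a 5p and a 3p strand, and 1 strand is usually kept to guide silencing of mRNAs. Its seed, bases 2 to 8, does most of the target pairing. Exosomes are small vesicles that cells release and that carry RNA, and short motifs such as GGAG, CCCU and GGCU have been described as marks of miRNAs sorted into them. Angiotensin II is a peptide hormone that raises blood pressure and drives growth of cardiomyocytes.

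Mature sequences from RefSeq (GRCh38.p14) matched 1082 of the 1199 tested names. The first set below holds names that were higher in AngII and the second set names that were lower. The third set holds names for which the library Con 1 stood apart, and the fourth set names that share 1 seed. Capitals mark the seed.
miR-552-3p: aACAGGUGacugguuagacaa
miR-3972: cUGCCAGCcccguuccagggca
miR-3614-3p: uAGCCUUCagaucuugguguuuu
miR-510-3p: aUUGAAACcucuaagagugga
miR-519c-3p: aAAGUGCAucuuuuuagaggau
miR-450a-2-3p: aUUGGGGAcauuuugcauucau
miR-1285-3p: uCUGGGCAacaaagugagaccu
miR-4699-3p: aAUUUACUcugcaaucuucucc
miR-3153: gGGGAAAGcgaguagggacauuu
miR-382-5p: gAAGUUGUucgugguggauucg
miR-16-5p: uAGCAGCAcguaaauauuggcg
let-7c-5p: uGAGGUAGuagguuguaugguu
miR-148a-3p: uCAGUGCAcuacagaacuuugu
miR-122-5p: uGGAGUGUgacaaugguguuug
miR-4498: uGGGCUGGcagggcaagugcug
miR-5001-5p: aGGGCUGGacucagcggcggagcu
miR-762: gGGGCUGGggccggggccgagc
miR-4492: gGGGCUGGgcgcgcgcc

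Each exosome library held 697049 to 1029883 unique molecular identifiers (UMIs), which count original molecules rather than copies made in amplification. Levels below are UMIs as counts per 1000000 of the library total (CPM). Changes are log2 differences, AngII minus Con, from edgeR's quasi-likelihood test with TMM scaling, and a name was called when its p, adjusted by Benjamini-Hochberg over all 1199 tested names, was under 0.05. The floor of 3 counts lay between 2.91 and 4.30 CPM and covers counting error only. Of 7 muscle miRNAs, the defining markers of heart and skeletal muscle, 6 had at most 7 counts in any exosome library and were not tested. The seventh, miR-208a-3p, whose hairpin is intronic in MYH6 (cardiac myosin heavy chain), was at 62.0 ± 5.24 CPM in Con and 52.2 ± 4.67 in AngII (SD, n = 3). Its log2 change of -0.08 was not called, nor was it called under any of 19 alternative settings.

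Con 1 stood apart from the other controls. The chi-square per degree of freedom over the tested names was 8.12 between Con 1 and Con 2 and 13.4 between Con 1 and Con 3, against 2.16 between Con 2 and Con 3 and 2.09 to 3.67 among the AngII libraries. Every pair of a Con and an AngII library differed more, at 62.9 to 82.1. Results below are with Con 1 kept, and the value without it is added where it bears on a call or a median.

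AngII exosomes differed from Con exosomes at 408 of 1199 tested names (34.0%), of which 204 were higher (17.0%) and 204 lower (17.0%). Without Con 1 the test called 422 of 1240 names (34.0%), 215 higher (17.3%) and 207 lower (16.7%). The median log2 change of all tested names was -0.05. Scaling by library totals instead of TMM moved that median by -0.17, to -0.22, and gave 470 called names (39.2%), 151 higher (12.6%) and 319 lower (26.6%). DESeq2 called 293 of 966 names (30.3%), 177 higher (18.3%) and 116 lower. At the same level of adjusted p, 23 names rose and 46 fell at least 2-fold, 69 in all (5.75%). CPM did not overlap between the groups at 628 names (52.4%), 193 higher (16.1%) and 435 lower (36.3%) in AngII. CPM is scaled by library totals, which also gave more lower than higher calls, unlike TMM. Of the 408 called names, 355 were also called with the same sign on library totals and 286 with DESeq2.

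**Figure D1:**
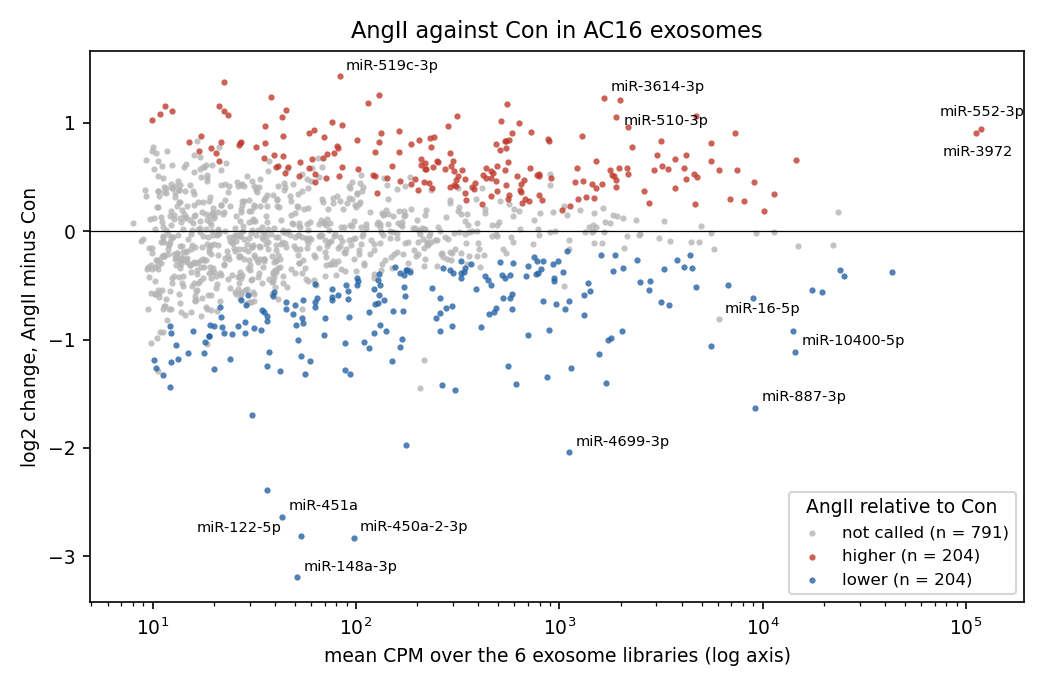
Log2 change (AngII minus Con, vertical axis) of the 1199 tested names against mean CPM over the 6 exosome libraries (log horizontal axis), 1 point a name. The 204 higher names are red, the 204 lower names blue and the 791 names not called grey; miR-552-3p and miR-3972 stand alone at the right, and the deepest falls lie below -2.

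A single pair of names, miR-552-3p and miR-3972, held 17.3%, 17.2% and 17.0% of all UMIs in Con 1 to 3 and 29.2%, 29.01% and 29.2% in AngII 1 to 3. The share of both together was thus higher in each AngII library, with an exact two-sided permutation p of 0.1, the smallest that 3 against 3 libraries allow, and 0.22 after Benjamini-Hochberg adjustment over 22 such shares. miR-552-3p was at 89005, 88669 and 84622 CPM in Con and at 145242, 155654 and 150630 CPM in AngII. Its log2 change was 0.95 (SE 0.06, adjusted p = 2.62e-06 by edgeR's quasi-likelihood test), or 1.93-fold, and 0.99 without Con 1. Its hairpin lies at chr1:34669599-34669694 on the minus strand (GRCh38), outside other genes of GENCODE release 29. miR-3972 was at 84314, 83199 and 85110 CPM in Con and at 146272, 134456 and 141112 CPM in AngII. Its log2 change was 0.91 (SE 0.06, adjusted p = 3.18e-06 by edgeR), and 0.94 without Con 1. The hairpin lies in an intron of PADI3, at chr1:17277889-17277975 on the plus strand. Neither name overlapped between the groups.

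Of the other 8 of the 10 most abundant names, 5 fell and 3 were not called. Of all tested names 17.0% were higher and 17.0% lower, and of the 59 names at 3000 CPM or more, 44.1% and 32.2%. miR-3944-5p, next in abundance, was at 51376 ± 2066 CPM in Con and 35292 ± 1584 in AngII (SD, n = 3) and fell by 0.38 on the log2 scale. miR-671-3p, miR-5008-3p, miR-3153 and miR-4435 fell by 0.41, 0.36, 0.56 and 0.55. miR-6785-3p, miR-668-3p and miR-1237-5p were not called, with log2 changes of 0.18, -0.13 and -0.14. Their call depended on the setting: miR-6785-3p was called higher without Con 1 (0.23, adjusted p = 0.0105 by edgeR) and the other two were called lower on library totals (-0.29 and -0.30). The fall of miR-5008-3p was lost only when all 12 libraries shared 1 fit (adjusted p = 0.0823 by edgeR).

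The largest rises, taken where no AngII library overlapped the Con range, were of names at low or middle abundance. miR-519c-3p, from the primate-specific chromosome 19 cluster, was at 43.7, 49.5 and 52.5 CPM in Con and at 132, 118 and 103 CPM in AngII, a log2 change of 1.43 (SE 0.15, adjusted p = 5.13e-05 by edgeR). miR-3614-3p, whose hairpin lies in an exon of the antiviral ubiquitin ligase gene TRIM25 (chr17:56891270-56891355, minus strand), was at 1133, 1021 and 1053 CPM in Con and at 2458, 2040 and 2230 CPM in AngII. It rose by 1.23 (SE 0.09, adjusted p = 6.68e-06), and miR-6805-3p, from an exon of the ribosomal protein gene RPL28, rose by 1.21 from 1293 ± 37.1 to 2670 ± 207 CPM. That no library of either group overlapped the other for these 3 names was a condition of their choice. miR-487a-3p of the chromosome 14 cluster rose by 1.37 and miR-23a-5p, the passenger strand of the miR-23a hairpin, by 1.26, with 74.8, 93.4 and 81.3 CPM in Con and 176, 179 and 177 in AngII. miR-5581-3p, miR-6824-5p and miR-6816-3p rose by 1.24, 1.18 and 1.18. The remaining 4 of the 12 largest rises, miR-598-5p, miR-4765, miR-4768-5p and miR-6755-5p, had 1.11 to 1.16 at 7.57 to 31.2 CPM in Con. Among them miR-598-5p lost its call under 5 of the 17 alternatives that gave it an adjusted p, among them leaving out Con 2, AngII 1 or AngII 2, with an adjusted p of up to 0.0841. miR-6755-5p lost its call with DESeq2 (adjusted p = 0.0565).

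The largest falls, again among names without overlap, went deeper than the largest rises. miR-450a-2-3p, from the X-linked cluster that also holds miR-424, was at 167, 194 and 160 CPM in Con and at 23.0, 17.8 and 24.4 CPM in AngII. Its log2 change was -2.83 (SE 0.17, adjusted p = 2.18e-06 by edgeR), or 7.10-fold lower. miR-1285-3p was at 48.5, 64.2 and 75.2 CPM in Con and at 12.9, 11.5 and 7.82 CPM in AngII, a change of -2.39. The lowest Con library lay far above the highest AngII library for both names.

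At higher levels, miR-4699-3p was at 1908, 1819 and 1786 CPM in Con and at 379, 399 and 421 CPM in AngII. It changed by -2.04 (SE 0.07, adjusted p = 1.09e-07 by edgeR), or 4.10-fold lower, and its hairpin lies in an intron of ACSS3 (chr12:81158388-81158461, plus strand). miR-887-3p was at 14094, 14029 and 14491 CPM in Con and at 3911, 4143 and 4237 CPM in AngII, 3.09-fold lower, with the lowest adjusted p of all tested names (6.96e-08 by edgeR). Both strands of miR-10400 fell, the 5p strand from 20502 ± 412 to 8456 ± 219 CPM (-1.11) and the 3p strand from 2522 ± 150 to 854 ± 15.6 CPM (-1.40). miR-382-5p, a member of the chromosome 14 cluster, fell from 1289 ± 88.6 to 452 ± 50.2 CPM (-1.34), and miR-3141 from 918 ± 31.7 to 308 ± 11.5 CPM (-1.41). miR-554, let-7i-3p, miR-518e-3p, miR-4762-5p and miR-4498 completed the 12 largest falls, at -1.32 to -1.46. Of the 24 largest changes, 20 were called under each of 19 alternatives, and let-7i-3p under each of the 16 that gave it an adjusted p. Besides miR-598-5p and miR-6755-5p, the third exception was miR-518e-3p, at 2.87 to 19.4 CPM, which was lost without AngII 1 or AngII 2 (adjusted p up to 0.0643 by edgeR).

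**Figure D2:**
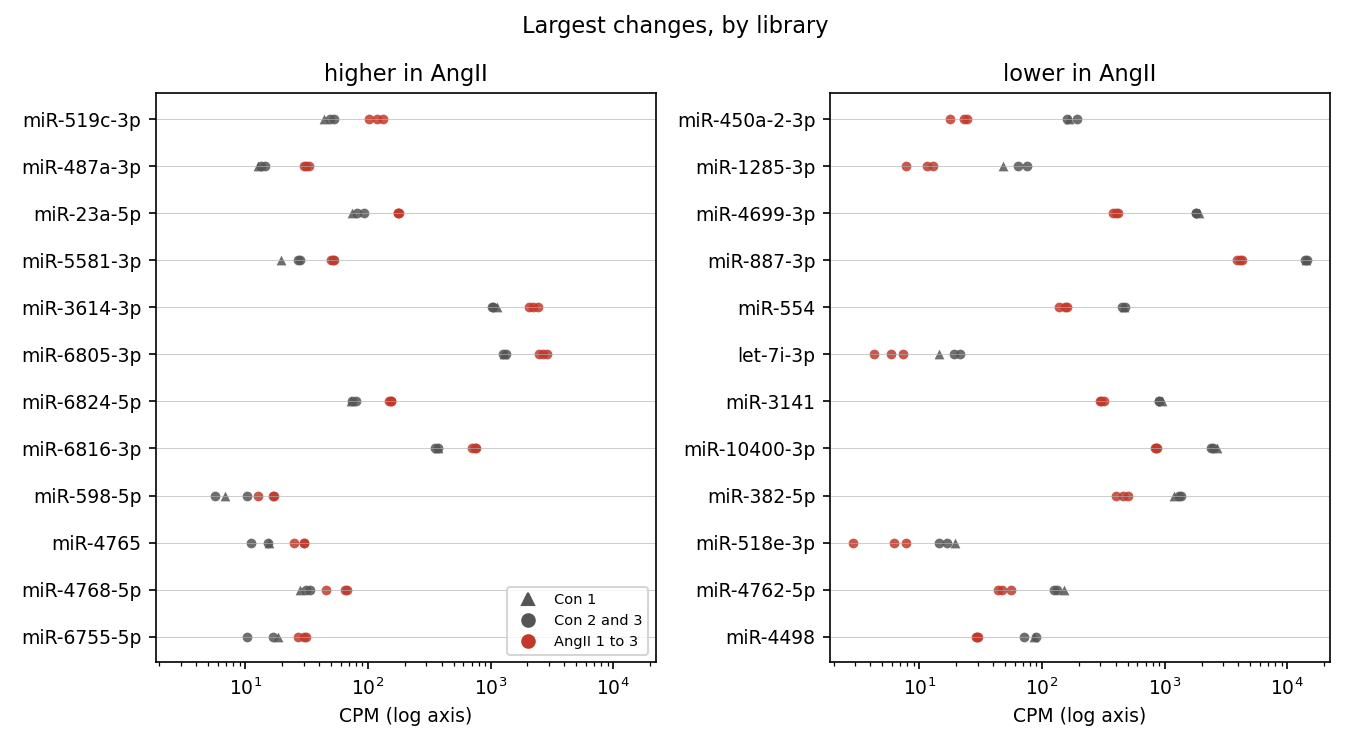
CPM (log axis) of the 12 largest rises (left) and the 12 largest falls (right), 1 point a library, with Con in grey and AngII in red, and Con 1 drawn as a triangle. Names were chosen so that no red point lies among the grey points of the same name. miR-450a-2-3p runs from 17.8 to 24.4 CPM in AngII and from 160 to 194 in Con.

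The share of names called grew with abundance. It was 12.1% of 397 names under 30 CPM, 41.4% of 198 names at 100 to 300 CPM and 76.3% of 59 names at 3000 CPM or more, while the median SE of the log2 change went from 0.28 to 0.12 and 0.06. A change of the same size could thus be called at high levels and missed at low ones.

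Leaving out Con 1 changed which names were called, though not their direction. Of the 408 called names, 372 were also called without it, each with the same sign, while 36 were called only with it and 50 only without it. Among those 50, 23 were higher and 27 lower, and 9 of the 27 lower names belonged to a list of 56 conserved guide strands that most human cells express. That list made up 53 of the 1240 names tested without Con 1. Among 661 tested names of at least 50 mean CPM in Con, Con 1 was more than 2-fold below the mean of Con 2 and Con 3 at 37 and more than 2-fold above it at 0. Conserved guide strands made up 21 of those 37 names, and 38 of the 661.

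The conserved guide strands were low in Con 1 as a group. They held 1.14%, 2.55% and 3.21% of UMIs in Con 1 to 3 and 1.61%, 2.13% and 1.43% in AngII 1 to 3 (exact permutation p = 0.5), against 24.7% in Con cells. Con 1 was below all 5 other libraries at 41 of the 51 tested members, as it was at 217 of all 1199 names. Their median level in Con 1, on the TMM scale, was -0.96 (log2) relative to the mean of Con 2 and 3, where the median of all tested names was 0.05. With Con 1, 2 of the 51 were called higher and 3 lower, beside 17.0% of all tested names in each direction. Their median log2 change was -0.02. Without it, 2 of 53 were higher and 12 lower, beside 17.3% and 16.7% of all tested names. The median was then -0.24, beside -0.06 for all tested names.

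**Figure D3:**
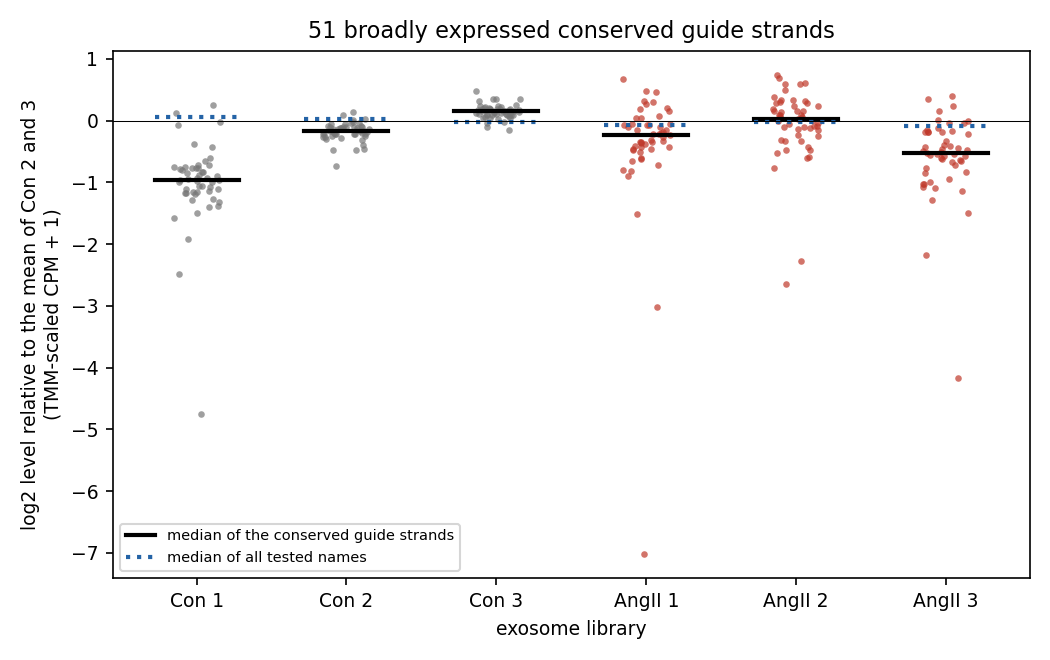
Level of 51 conserved guide strands in each exosome library, as log2 of TMM-scaled CPM + 1 relative to the mean of Con 2 and 3 (vertical axis), 1 point a name, with a black line at their median and a dotted blue line at the median of all tested names. The black line is at -0.96 in Con 1, 0.15 in Con 3 and -0.52 in AngII 3; miR-148a-3p is the lowest point in Con 1 and in each AngII library.

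miR-16-5p, a conserved miRNA that restrains the cell cycle, shows the dependence on that library. It was at 2694, 9752 and 11811 CPM in Con and at 3239, 5572 and 3356 CPM in AngII. Con 1 lay below all AngII libraries and the other controls above them. Its log2 change was -0.81 with Con 1 (SE 0.41, adjusted p = 0.166 by edgeR) and -1.21 without it (adjusted p = 3.50e-05). let-7b-5p, a member of the growth-restraining let-7 family, moved likewise, from -0.50 (adjusted p = 0.239) to -0.83 (adjusted p = 4.68e-05).

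Markers of other cell types were among the names most reduced in Con 1. miR-122-5p, the defining liver miRNA, was at 8.74, 123 and 156 CPM in Con and at 4.30, 18.8 and 10.8 in AngII. miR-451a, the defining red cell miRNA, was at 9.71, 92.3 and 128 CPM in Con and at 0, 23.0 and 6.85 in AngII. miR-148a-3p was at 3.88, 117 and 162 CPM in Con and at 0, 18.8 and 5.87 in AngII. In each of these 3, Con 1 sat with the AngII libraries and far from Con 2 and Con 3. All were called lower with Con 1, at -2.81, -2.63 and -3.19 (adjusted p = 0.0261, 0.0423 and 0.0378 by edgeR), and at -3.35, -3.15 and -3.75 without it. With Con 1 kept, those calls were lost on leaving out Con 2, Con 3, AngII 1 or AngII 3, and over all 19 alternatives the adjusted p reached 0.315, 0.186 and 0.308. let-7c-5p, whose call was lost under 5 alternatives, was similar, at 66.0, 368 and 430 CPM in Con and 41.6, 72.1 and 76.3 in AngII, with -1.97 and -2.42 without Con 1.

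The blood cell list as a whole had 5 of 7 members tested, of which 0 rose and 3 fell, beside 17.0% lower of all tested names, and 4 fell without Con 1, beside 16.7%. Its members held 0.0552%, 0.119% and 0.128% of UMIs in Con and 0.0346%, 0.0643% and 0.0476% in AngII (exact permutation p = 0.2). Besides miR-451a, miR-142-3p and miR-223-3p, both of white cells, fell by 1.69 and 0.45, and each lost its call under 9 of 19 alternatives, among them leaving out any other library than Con 1 (adjusted p up to 0.472 and 0.221 over the alternatives). The endothelial markers miR-126-3p and miR-126-5p were not called with Con 1 (-1.19 and -0.58) and were called lower without it (-1.56 and -0.97). Of 3 tested liver markers 1 was higher and 1 lower, beside 17.0% of all tested names in each direction. miR-885-5p rose by 0.82, a call lost under 6 of 19 alternatives, including leaving out Con 3 or AngII 2 (adjusted p up to 0.142). None of the 3 neuronal or 2 epithelial markers tested was called. The part of RNA from other cells or from the culture medium in these changes was not tested.

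In the other direction, the 5 names of lowest p that were called only with Con 1 were miR-3944-3p, miR-7846-3p, miR-8083, miR-10526-3p and miR-762. They changed by 0.78, -0.53, 0.76, -0.64 and -0.46 with it and by 0.62, -0.42, 0.62, -0.58 and -0.36 without it, where the adjusted p was 0.0514 to 0.107. Each of the 5 calls was also lost with DESeq2 and on leaving out AngII 2. In the order printed, they were lost under 10, 7, 12, 9 and 8 of 19 alternatives. miR-3646 was called higher without Con 1 and not with it (0.38 and 0.27).

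Among miRNAs known from the heart, single members moved. Of 13 tested names described as promoting hypertrophy, 2 rose and 1 fell, beside 17.0% higher and 17.0% lower of all tested names. Their median log2 change was 0.25 with Con 1 and 0.04 without it, where all tested names stood at -0.05 and -0.06. miR-214-3p, made from the DNM3OS transcript, was at 175, 169 and 178 CPM in Con and at 211, 203 and 235 in AngII, without overlap, and rose by 0.48 (adjusted p = 0.00577 by edgeR). miR-27b-3p rose by 0.59, a call lost under 2 of 19 alternatives. miR-212-3p, the partner of miR-132 in its cluster and a promoter of hypertrophy in mice, fell by 1.12. It was at 18.4, 21.4 and 23.7 CPM in Con and at 8.61, 9.40 and 7.82 in AngII. Its call was lost on thinned counts (adjusted p = 0.0542 by edgeR). Of the same cluster, miR-212-5p, at 82.0 CPM in Con, was not called (-0.09), and miR-132-5p rose by 0.58 (adjusted p = 0.00291 by edgeR). No check under the alternatives is given for either, and miR-132-3p, the other strand of miR-132, is not described here. miR-21-5p, the best-known profibrotic miRNA of the heart, was at 489, 789 and 1082 CPM in Con and at 924, 1264 and 821 in AngII, and overlapped. It was not called (0.53, adjusted p = 0.107 by edgeR, and 0.30 without Con 1). Leaving out Con 3, or fitting all 12 libraries together, gave a call of higher (adjusted p down to 0.0150 by edgeR).

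Of 9 tested names described as opposing hypertrophy, 0 rose and 3 fell, beside 17.0% of all tested names in each direction, with a median of -0.45. Without Con 1, 4 of 10 fell (16.7% of all tested names) and the median was -0.48. The 3 were miR-223-3p and miR-142-3p, which are also on the blood cell list, and miR-181b-5p, at -0.50, which lost its call under 10 of 19 alternatives, including leaving out Con 2, Con 3, AngII 2 or AngII 3 (adjusted p up to 0.174). Of 11 fibrosis names 1 rose, miR-214-3p again, and miR-29a-3p and miR-29b-3p, which repress collagens, were not called at 0.43 and 0.67 with Con 1, nor at 0.17 and 0.33 without it. Both were called higher under 1 alternative, leaving out Con 3 (adjusted p = 0.0324 and 0.0149 by edgeR). The median of the fibrosis list was 0.16 with Con 1 and -0.07 without it, where 1 rose and 1 fell. Of 6 inflammation and hypoxia names 1 rose and 1 fell, beside 17.0% of all tested names in each direction. miR-210-3p, induced by hypoxia, rose by 0.73 at 13.5 to 27.4 CPM, a call lost under 11 of 19 alternatives, among them leaving out any library but Con 1 (adjusted p up to 0.275). miR-146a-5p, which dampens NF-kB signalling, was not called with Con 1 (-0.21) and was called lower without it (-0.57, adjusted p = 0.0399).

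Members of 1 genomic cluster were called in both directions. In the imprinted chromosome 14 cluster, 4 of 54 tested names rose and 6 fell, beside 17.0% of all tested names in each direction, with a median of 0.17. Without Con 1, 5 of 56 rose and 6 fell, with a median of 0.06. miR-654-5p rose from 3048 ± 223 to 4322 ± 74.6 CPM (0.67) and miR-369-5p by 0.46, whereas miR-412-3p fell by 0.48 and miR-382-5p by 1.34. In the chromosome 19 cluster 3 of 8 rose and 2 fell, beside the same 17.0% of all tested names in each direction. miR-519c-3p, miR-526b-5p and miR-518b rose by 1.43, 1.06 and 0.79, and miR-519d-3p, at 590, 590 and 585 CPM in Con and 281, 330 and 314 in AngII, fell by 0.77 beside miR-518e-3p.

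Of the X-linked names miR-506 to miR-514, 2 of 6 rose and 1 fell, beside 17.0% of all tested names in each direction. miR-510-3p (chrX:147272335-147272408, minus strand) was at 1373, 1308 and 1298 CPM in Con and at 2468, 2452 and 2461 in AngII, a rise of 1.06 (SE 0.06, adjusted p = 2.26e-06 by edgeR). miR-509-3p rose by 0.38 and miR-509-3-5p fell by 0.50. In the other X-linked cluster, 1 of 5 tested names fell, beside 17.0% of all tested names. That was miR-450a-2-3p, while miR-503-5p, miR-503-3p and miR-424-3p were not called at -0.14, -0.75 and 0.09.

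The clusters of miR-23, miR-27 and miR-24 had 3 of 7 tested names higher and 0 lower, beside 17.0% of all tested names in each direction, with a median of 0.59 (0.36 without Con 1). Con 1 was below all 5 other libraries at each of the 7. The 3 were miR-23a-5p, miR-27a-3p and miR-27b-3p; miR-27a-3p, at 37.9, 61.9 and 77.2 CPM in Con and 83.2, 92.9 and 80.2 in AngII, rose by 0.71 and lost its call under 7 of 19 alternatives, including leaving out Con 2 or any AngII library (adjusted p up to 0.182). Of the miR-320 family, 0 of 6 were called.

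Names reported to overlap pieces of rRNA, tRNA or snRNA held 4.79% ± 0.0391 of UMIs in Con and 3.80% ± 0.0300 in AngII (SD, n = 3; exact permutation p = 0.1, and 0.22 after Benjamini-Hochberg adjustment over 22 shares). The difference, -0.990 percentage points, was -0.423 with miR-552-3p and miR-3972 left out of the totals. Of 16 tested, 2 rose and 4 fell, beside 17.0% of all tested names in each direction. miR-3960 fell from 7834 ± 384 to 3340 ± 189 CPM (-1.06), miR-3648 by 1.25 and miR-4488 by 0.62, while miR-7704 rose from 2731 ± 217 to 3685 ± 181 CPM (0.60). The part of other RNAs in these counts was not tested. Among 20 classic mirtrons, which are made by splicing rather than by Drosha, 5 rose and 3 fell, beside the same 17.0% in each direction. miR-1238-5p rose by 0.88 and miR-1229-3p fell by 0.87. The many names from miR-6715 to miR-6895 gave 31 higher and 29 lower of 221 tested, beside 17.0% of all tested names in each direction, with a median of -0.10. On library totals 24 of them were higher and 54 lower, beside 12.6% and 26.6% of all tested names.

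**Figure D4:**
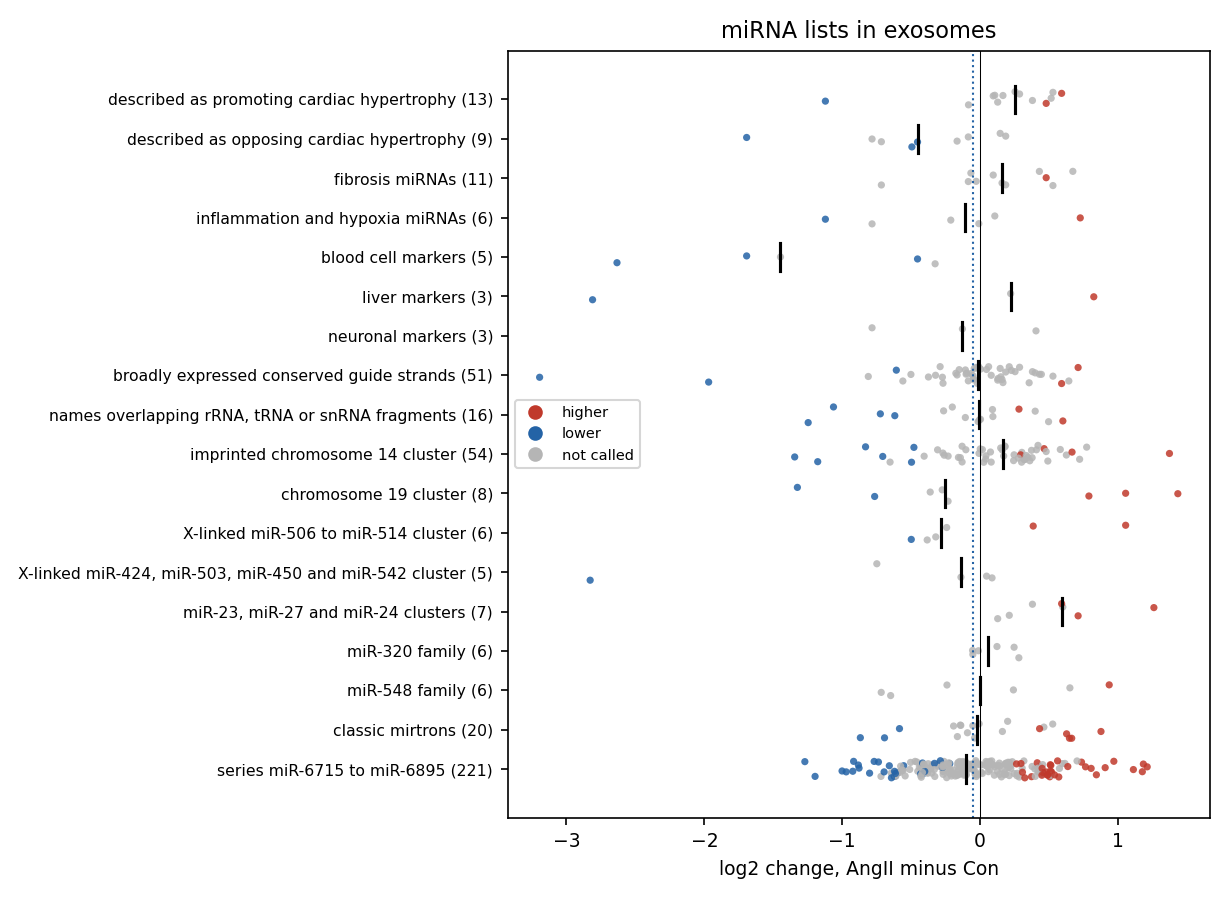
Log2 change (AngII minus Con, horizontal axis) of the tested members of 18 lists with 3 or more of them, 1 point a name, red where higher, blue where lower and grey where not called, with a black bar at each list's median and a dotted line at the median of all tested names (-0.05). Most lists spread to both sides; the blood cell list lies to the left (median -1.45) and the clusters of miR-23, miR-27 and miR-24 to the right (0.59).

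Both strands were tested for 245 hairpins, and 31.0% of these 490 strands were called, beside 34.0% of all tested names. Neither was called for 116, 1 was called for 106 and both for 23. Of those 23, 6 pairs were higher, 7 lower and 10 opposite; the difference between strands was not tested. miR-3944 was opposite, with the 5p strand at -0.38 and the 3p strand, at 25.6 ± 7.10 CPM in Con, at 0.78. The call of the 3p strand was lost under 10 of 19 alternatives, including DESeq2 and leaving out Con 1, Con 3, AngII 2 or AngII 3. miR-23a-5p rose by 1.26 while miR-23a-3p, the guide strand, was not called at 0.13. miR-3614-5p was not called either (-0.08 at 15.9 CPM in Con, against 1069 for its 3p strand). miR-671 fell on both strands (-0.41 for the 3p and -0.75 for the 5p strand).

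The 945 distinct seeds of tested names included 19 held by 3 or more names. Of the 69 names with such a seed 16 were called (23.2%), beside 34.0% of all tested names. In 4 of the 19 seeds at least 2 names were called, in both directions for 3 of them and only lower for GGGCUGG. Of the 4 names with seed GGGCUGG printed above, miR-4498, miR-5001-5p and miR-762 fell by 1.32, 0.71 and 0.46, the last with no call without Con 1, and miR-4492 stood at 0.00. Of the 3 with seed ACAUUCA, miR-181b-5p fell, miR-181c-5p rose by 0.49 (not called on library totals) and miR-181a-5p was not called with Con 1 (-0.27) and was called lower without it (-0.60, adjusted p = 0.0470 by edgeR). Of the 4 with seed CUGGGCA, miR-1285-3p and miR-5189-5p fell, by 2.39 and 0.66, miR-3187-5p rose by 0.57 from 2927 ± 34.2 to 3888 ± 157 CPM, and miR-6860 was not called with Con 1 (0.20) and was called higher without it (0.28, adjusted p = 0.0169 by edgeR). miR-5189-5p lost its call under 7 of 19 alternatives, including leaving out Con 2, AngII 1 or AngII 2 (adjusted p up to 0.128). Of the 3 with seed UGGGGUG, miR-6737-5p rose by 0.51, miR-6819-5p fell by 0.61 and miR-6812-5p was not called.

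GGCU was more frequent among names that fell. It was found on the RNA strand in 45 of 187 lower names with a sequence (24.1%), in 23 of 182 higher names (12.6%) and in 182 of all 1082 (16.8%). The seed GGGCUGG contains these letters. Without Con 1 the shares were 20.8% and 13.0%, on library totals 21.0% and 11.9%, and with DESeq2 25.7% and 12.03%. Lower names were also richer in G and C, with a median GC content of 62.5% against 59.1% for higher and for all names, but without Con 1 the medians were 60.9% for lower and 60% for higher names. Among names of at least 60% GC, GGCU was in 33.9% of 109 lower, 14.8% of 88 higher and 24.5% of all 515 names. Below 60% GC the shares were 10.3%, 10.6% and 9.88%. GGAG was in 21.4% of lower, 23.1% of higher and 21.2% of all names; in lower and higher names it was in 18.6% and 24.4% without Con 1 and in 15.2% and 24.7% with DESeq2. CCCU was in 16.04% of lower, 17.6% of higher and 16.7% of all names. These are shares of letters in names that share families and GC content, and no protein's binding was measured.

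The tie between GC content and direction was weaker without Con 1. With it, of 221 names of 70% GC or more, 18.1% were higher and 26.7% lower (median -0.14), and of 177 names of 40% to 50% GC, 18.1% were higher and 10.2% lower (median 0.14). Without Con 1, 19.5% and 22.6% of the first class were higher and lower and 18.6% and 14.1% of the second, with medians of -0.12 and 0.03. On library totals the medians were -0.30 and -0.02. The part of GC content in the changes was not tested.

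Fewer names were called in the cells. In whole AC16 cells, AngII against Con called 107 of 1630 tested names (6.56%), 45 higher (2.76%) and 62 lower (3.80%). This share and that in exosomes come from separate fits, with other sets of tested names. They do not compare the size of the AngII change. Of 390 names called in exosomes and tested in cells, 55 were called in both, 27 with the same sign and 28 with opposite signs. miR-3153 fell in both, by 0.56 in exosomes and 0.47 in cells, and miR-99a-5p by 0.61 and 0.48, the exosome fall not being called with DESeq2. miR-4699-3p fell by 2.04 in exosomes while it rose by 0.66 in cells (adjusted p = 0.00633 by edgeR). miR-510-3p, miR-3614-3p and miR-519c-3p rose in exosomes and fell in cells by 0.43, 0.29 and 0.28.

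The difference between the changes, tested as an interaction over all 12 libraries, was called at 278 of 1835 names (15.1%), 183 positive (9.97%) and 95 negative (5.18%). On library totals 93 were positive and 221 negative, so the balance of signs depended on the scaling. Of the names called in exosomes, 226 were also called by this test. One cell library, AngII 2, stood apart in miR-126-3p, at 4007 CPM against 274 to 318 CPM in the other 5 cell libraries, and in miR-142-3p, miR-486-5p, miR-451a and miR-122-5p. Without it the test called 221 names, 151 positive and 70 negative. Then the differences of miR-451a, miR-122-5p, miR-126-3p and let-7c-5p were not called (-2.52, -3.02, -1.20 and -1.90, adjusted p = 0.563, 0.479, 0.203 and 0.0713 by edgeR), nor was that of miR-423-5p (-1.51, adjusted p = 0.0812).

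**Figure D5:**
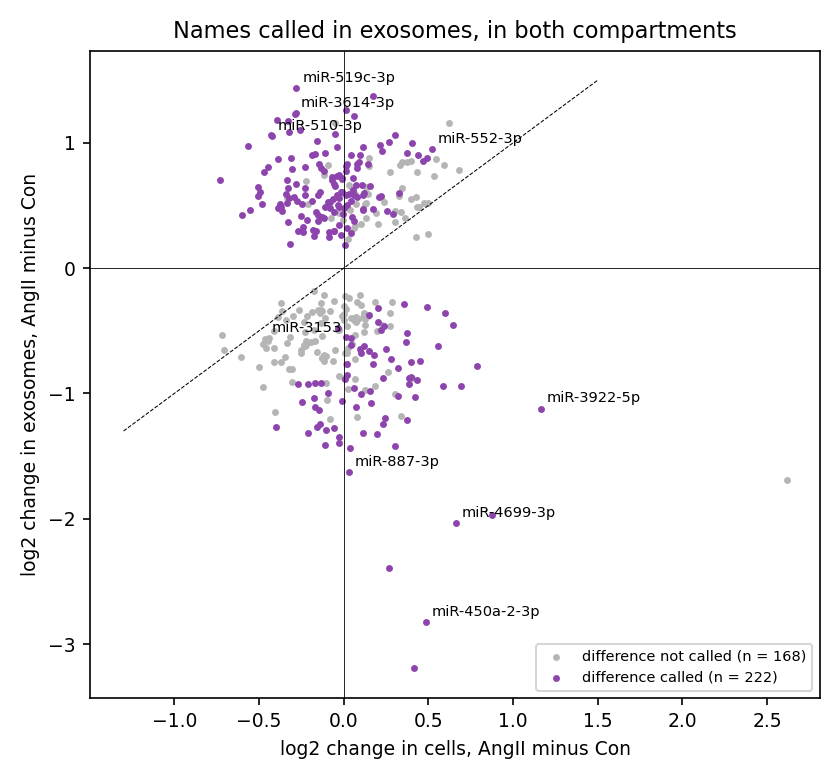
Log2 change in exosomes (vertical axis) against log2 change in cells (horizontal axis), AngII minus Con, for the 390 names called in exosomes and tested in cells, 1 point a name, purple where the difference between them was called (222) and grey where it was not (168); the dashed line marks equal changes. Most points spread vertically, with small changes in cells, and miR-4699-3p and miR-3922-5p lie at the lower right.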

How the data were processed

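The deposited values were raw counts of UMIs per mature miRNA name, whole numbers without normalization, per the file headers, 1 file a library. Tools and build named are cutadapt and GRCh38, per the submitters' processing notes. The aligner, mismatches and miRNA annotation were not given in the sources used here, so counts of near-identical family members are uncertain. Exosomes and their RNA came from the exoRNeasy Maxi kit and libraries from the QIAseq miRNA kit, per the labels' protocols. The exosome comparison used edgeR 4.0.16 (R 4.3.3) with filterByExpr (minimum count 10), TMM and the two-sided quasi-likelihood test on 3 against 3 libraries. Standard errors are the log2 change divided by the root of F. The cells were fitted alike and the interaction over 12 libraries. Alternatives were RLE, library totals, DESeq2 1.42.0, voom in limma 3.58.1, other count filters, thinned counts, totals without the pair of leading names, all 12 libraries, a replicate block and each library left out. The fit without Con 1 by voom was added after seeing the data. Sequences and hairpins came from RefSeq GRCh38.p14 and GENCODE 29.

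The text names the 12 largest changes each way (called, mean of at least 10 CPM, no overlap), the 10 most abundant names, up to 4 members a list of lowest p, names that hinge on Con 1, other strands, shared seeds and leading interactions. Not all are printed. Members and lists were chosen with earlier results of these data known. The fit was tested on simulated data.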

Additional observations from a re-analysis of the deposited data

Results flagged for a closer look

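For 54 of the names printed above, the AngII change differed between exosomes and cells by edgeR's interaction test over 12 libraries, with Benjamini-Hochberg adjusted p of at most 0.0451. Of all 1835 names tested, 15.1% were called by it. The printed names were picked partly for large exosome changes or a low p in this same test, so their count is high by selection. The log2 difference, exosome change minus cell change, was positive for 24 and negative for 30. Of the 54, 43 were called with the same sign on library totals, 44 with DESeq2, 50 without exosome Con 1 and 41 without the cell library AngII 2.

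Among the largest rises in exosomes, the difference was 1.85 for miR-519c-3p, 1.72 for miR-6824-5p, 1.66 for miR-5581-3p, 1.66 for miR-3614-3p and 1.65 for miR-6816-3p. It was 1.39 for miR-23a-5p, 1.35 for miR-487a-3p and 1.29 for miR-6805-3p. Among the leading names it was 1.0 for miR-3972, 0.57 for miR-552-3p, -0.39 for miR-3944-5p, -0.42 for miR-4435 and -0.35 for miR-1237-5p. Of these, miR-3972 alone was called with RLE scaling, on library totals, with DESeq2, with voom, without exosome Con 1 and without cell AngII 2. miR-552-3p was lost on library totals (0.25, adjusted p = 0.427 by edgeR) and with voom (adjusted p = 0.0655). miR-3944-5p was lost with RLE scaling, DESeq2, voom and without cell AngII 2 (adjusted p = 0.181, 0.175, 0.0564 and 0.0952). miR-4435 was lost with RLE scaling and DESeq2, and miR-1237-5p with both and without cell AngII 2.

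Among the largest falls it was -3.17 for miR-450a-2-3p, -2.56 for miR-4699-3p, -2.53 for miR-1285-3p and -1.52 for miR-887-3p. It was -1.38 for miR-518e-3p, -1.34 for let-7i-3p, -1.29 for miR-4498, -1.23 for miR-10400-3p, -1.18 for miR-382-5p, -1.16 for miR-3141, -0.96 for miR-4762-5p and -0.80 for miR-10400-5p.

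Names for which exosome Con 1 or cell AngII 2 stood apart differed by -5.91 (miR-122-5p), -5.81 (miR-451a), -3.52 (miR-126-3p), -3.48 (miR-148a-3p), -2.72 (let-7c-5p) and -1.60 (miR-423-5p). Only miR-148a-3p of these was called without cell AngII 2 (-3.31, adjusted p = 0.0404 by edgeR).

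Cluster and list members differed by 1.62 (miR-510-3p), 1.24 (miR-518b), 1.01 (miR-214-3p), 0.94 (miR-210-3p), 0.85 (miR-27a-3p), 0.74 (miR-509-3p), 0.70 (miR-27b-3p), 0.70 (miR-654-5p), 0.52 (miR-1238-5p), 0.49 (miR-369-5p) and 0.41 (miR-7704). In the negative direction the values were -1.12 (miR-1229-3p), -0.97 (miR-3648), -0.92 (miR-3960), -0.65 (miR-519d-3p), -0.60 (miR-4488) and -0.31 (miR-412-3p). The remaining names, printed for a seed, a strand or Con 1, were miR-6737-5p at 0.90, miR-3187-5p at 0.75, miR-181c-5p at 0.73, miR-6819-5p at -0.52, miR-671-5p at -1.01 and miR-10526-3p at -1.41.

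Without exosome Con 1 the difference was not called for miR-487a-3p, miR-518e-3p, miR-7704 and miR-10526-3p. Without cell AngII 2 it was not called for those 4, nor for let-7i-3p and miR-6737-5p, besides the names given above. On library totals it was not called for miR-552-3p, miR-487a-3p, miR-27a-3p, miR-27b-3p, miR-210-3p, miR-7704, miR-369-5p, miR-518b, miR-1238-5p, miR-181c-5p and miR-6737-5p. Besides the leading names given above, RLE scaling gave no call for let-7i-3p, miR-412-3p and miR-10526-3p. DESeq2 gave none for miR-412-3p, miR-10526-3p, miR-148a-3p and miR-423-5p, and no adjusted p for let-7i-3p, miR-518e-3p and miR-126-3p. Voom gave none for miR-451a, miR-122-5p, miR-126-3p, let-7c-5p, miR-148a-3p and miR-423-5p.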

How the results depend on the processing

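The exosome count of called names stayed between 312 and 422 when each library was left out, with 166 to 215 higher and 138 to 207 lower names. On library totals 319 names were lower, and 339 without Con 1 as well. With DESeq2 116 were lower, and 119 without Con 1 as well. Of the 78 called names chosen by the rules above, 51 were called under every alternative that gave them an adjusted p, 50 of them under each of 19. Of the 46 chosen names that were not called, 25 were called under at least 1 alternative. miR-4492, not called at 0.00, was called lower on library totals (-0.16), since that scaling moves all names down. The cause of the other shifts was not tested.

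In cells, leaving out a library gave 38 to 97 called names, 16 to 40 higher and 22 to 57 lower, with 38 without Con 2 and 38 without Con 3. The interaction gave 218 to 286, with 139 to 194 positive and 70 to 111 negative, and on library totals 93 positive and 221 negative.

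With the 2 leading names left out of the totals, the AngII minus Con difference in shares of UMIs, in percentage points, was -0.423 for rRNA, tRNA or snRNA names, 1.74 for miR-6715 to miR-6895, 0.317 for the chromosome 14 cluster and -0.0120 for the chromosome 19 cluster. Those shares depend on their denominator.

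The replicate numbers are shared by the groups, but same-numbered libraries deviated with correlations of 0.257, 0.227 and -0.143, and Con 3 correlated best with AngII 2. With a replicate block 398 names were called in exosomes, 204 higher and 194 lower, 132 in cells and 252 by the interaction.

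Under 30 CPM the median SE was 0.28, so small changes there could not be called.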
